A study of Mus musculus with 20 samples.

Results

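The methionine and one-carbon genes described here are 9 genes of liver: Mat1a, Gnmt, Pemt, Nnmt, Ahcy, Bhmt, Cbs, Cth and Shmt1. They were chosen as every non-control probe whose gene name on the array is a member of that set, which gave 13 probes of 41174 different probes on the array and 9 of 21120 different gene symbols. Ahcy had 3 probes, Pemt and Shmt1 had 2 each, and the other 6 genes had 1 each. All 13 probes were well above background on all 20 arrays, so each member was measured in every liver.

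The study compared livers of mice that were susceptible to diet-induced obesity, called responders in the labels (n = 10), with livers of mice that were resistant to it, called non-responders (n = 10). All 20 samples came from male mice of the inbred strain C57BL/6J, fed a high-fat diet that supplied 60% of its calories as fat once they were weaned. Livers were taken at 6 weeks of age, and neither group received another agent or carried an engineered allele according to the labels. No group on another diet was analysed here, so both groups share the diet, and the labels give neither an animal number nor the hour of sampling. p-values therefore measure the spread between these samples.

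The methionine cycle turns methionine into S-adenosylmethionine (SAM), the methyl donor of most methylation reactions, and takes the product back through S-adenosylhomocysteine and homocysteine. Homocysteine is either given a new methyl group, from betaine or from a folate carrier, or passed through transsulfuration to cysteine, a building block of glutathione and taurine. Liver carries out most of the body's methionine breakdown, and its use of SAM for phosphatidylcholine, sarcosine and methylnicotinamide ties the cycle to fat export and to NAD turnover.

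The 60-base probes of 3 members are shown because the reading of their values depends on the sequence, in lower case and 5′ to 3′. The Nnmt probe lies at chr9:48400115-48400174 of mm9 on the minus strand, and the annotation gives it a single transcript, so the widest group difference among the members comes from a probe assigned to 1 gene. The Gnmt probe lies on the minus strand at chr17:46862894-46863042 of mm9, a span of 149 bases for 60 bases of probe, so it crosses an exon junction of the spliced RNA. The Bhmt probe lies on the minus strand at chr13:94390054-94390113 of mm9, and the annotation lists it under transcripts of both Bhmt and its neighbour Bhmt2, so signal of these paralogs could not be told apart by this probe.
Nnmt probe: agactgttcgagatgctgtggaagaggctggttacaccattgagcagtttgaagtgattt
Gnmt probe: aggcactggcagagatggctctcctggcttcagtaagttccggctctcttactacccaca
Bhmt probe: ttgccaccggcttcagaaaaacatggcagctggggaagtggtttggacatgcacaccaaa

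Values are log2 processed signal relative to the 75th percentile of the same array, so a value of 0 is the level of that percentile, and they compare 1 gene between livers and not different genes. The 75th percentile itself was 280.1 to 417 in the first of 2 slide series and 413 to 657 in the second, and 55.8% to 71.2% of spots were well above background. The first slide series held 4 responders and 6 non-responders and the second 6 responders and 4 non-responders, so slide series was a term in the fit and each difference was also taken within each series. The tissue label was checked with 10 hepatocyte genes such as Alb and Ttr, of which 9 were measured: the mean level of 8 of them was 7.46 to 8.01 in responders and 7.62 to 8.29 in non-responders. Of 7 measured adipocyte markers, 6 were lower in responders and 5 of them had an unadjusted p under 0.05. The mean of the 7 ranged between -2.48 and 0.31 (median -1.55) in responders and between -1.64 and 1.62 (median 0.22) in non-responders. Plin1, among the 5, was well above background in 3 of 10 responders and 8 of 10 non-responders, and Retn in 2 and 6. Both were dim and passed the filter only through the non-responders. Both also enter the adipocyte mean, so that count and that mean are not a test of adipocyte content. The mean of 9 pancreatic acinar markers ranged between -4.87 and 5.36 in responders and between -4.08 and 5.38 in non-responders. Markers of stellate cells and fibroblasts were lower in responders for all 10 genes, 5 of them with an unadjusted p under 0.05. Of all rows tested, 51.1% were lower in responders and 3.72% were lower at that unadjusted level. Pdgfrb (-0.04), Lrat (-0.04) and Acta2 (-0.02) were the nearest to 0 of these markers. In the first slide series alone Col3a1, Dcn, Pdgfrb and Lrat were above 0. In whole liver, fewer cells of a type and less RNA per cell cannot be told apart.

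No member passed the test between responders and non-responders (limma, Benjamini-Hochberg adjustment over all 17186 rows tested, threshold 0.05). The share of all rows that passed was 0%, and the lowest adjusted p was 0.272 over all rows and 0.593 over the members, for Cth. At an unadjusted p under 0.05, 1 of 9 members was called, against 7.94% of all rows: 1 of 9 was lower in responders at that level, against 3.72% of rows, and 0 of 9 higher, against 4.22%. These member counts varied with the processing: with quantile normalization Pemt, higher, and Nnmt, lower, were under that level beside Cth. Of the 9, 4 were lower in responders (Mat1a, Nnmt, Ahcy and Cth) and 5 were higher (Bhmt, Gnmt, Pemt, Cbs and Shmt1), where 51.1% of all rows were lower and 48.9% higher. With normexp background correction, which fitted a background mean under -50 on 6 arrays, all 9 were lower, so the sign of the 5 higher genes depends on that choice. Its SEs were wider, at 0.36 against 0.07 for Gnmt and also for Pemt. Plain background subtraction, quantile normalization and the authors' deposited values turned the sign of no member that they measured. The median difference, responder minus non-responder, was 0.04 over the members and -0.0030 over all rows. The values of responders and non-responders overlapped for every member, as they did for all but 0.00582% of rows.

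**Figure D1:**
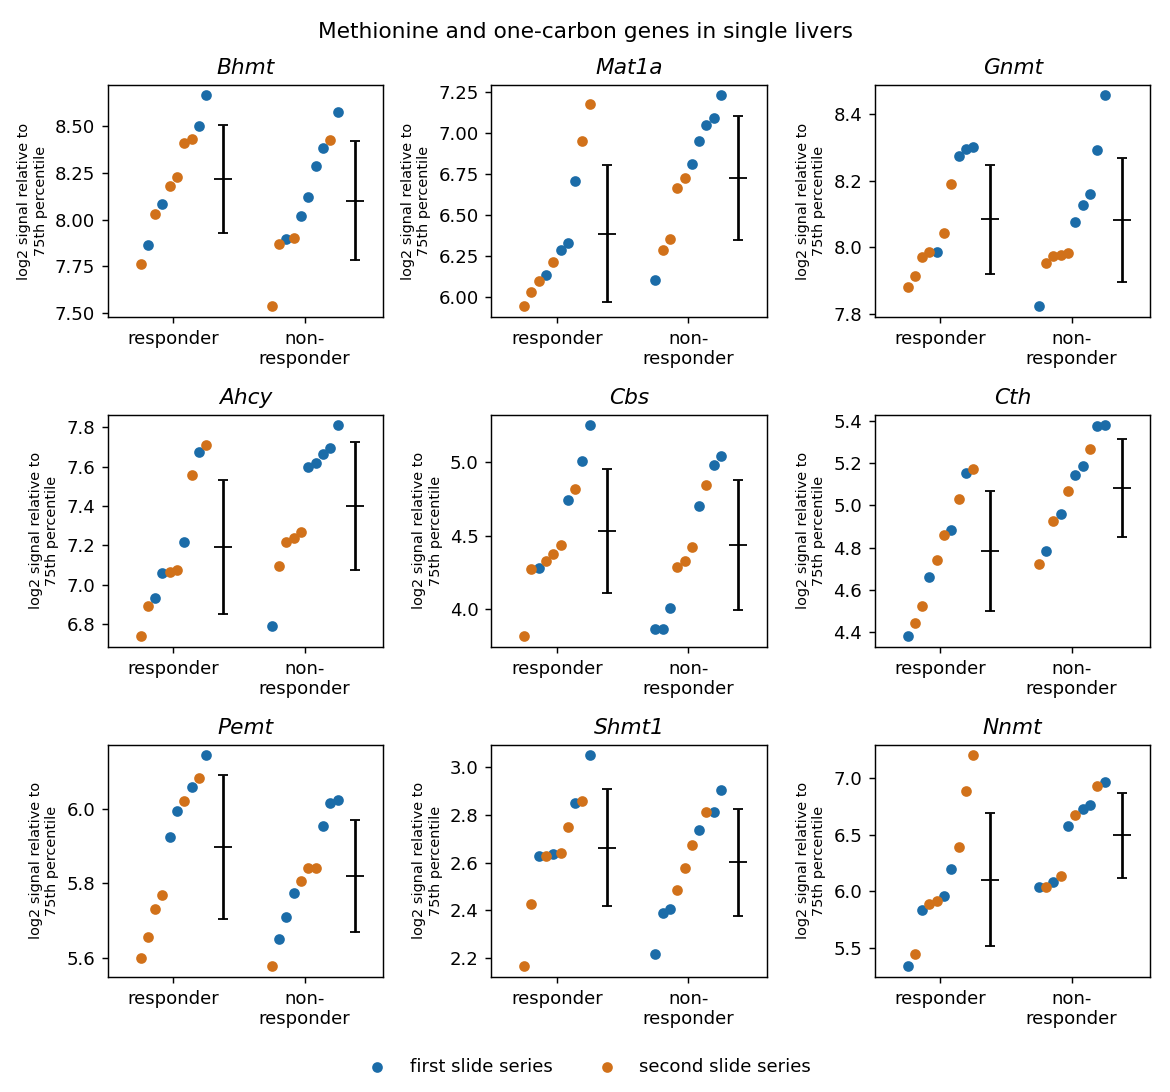
Log2 signal relative to the 75th percentile of the array (vertical axes) for each of the 9 genes in single livers, with responders to the left of non-responders, 10 of each, coloured by slide series. The bar beside each group is the mean and SD; the 2 groups overlap in every panel, and the highest responder value of Nnmt, 7.20, lies above all non-responder values.

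Mat1a encodes the liver form of methionine adenosyltransferase, which makes SAM from methionine. Its signal was 5.94 at the lowest, 6.25 at the median and 7.18 at the highest in responders, against 6.10, 6.77 and 7.23 in non-responders. Most responders were low: 8 of 10 had less Mat1a signal than non-responders averaged in their own slide series, while responders 5 and 6, both of the second series, lay within the upper part of the non-responder range at 6.95 and 7.18. The difference was -0.31 (SE 0.17, 95% interval -0.67 to 0.06), a ratio of 0.809 (unadjusted p = 0.0940, limma adjusted p = 0.687). Split by slide series, it was -0.51 (first) and -0.11 (second).

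Of the 3 methyltransferases that use SAM, Nnmt differed most. It encodes nicotinamide N-methyltransferase, which methylates nicotinamide and so removes a precursor of NAD. Nnmt signal was 5.34 at the lowest, 5.94 at the median and 7.20 at the highest in responders, against 6.04, 6.63 and 6.97 in non-responders. The responders were spread more widely (SD 0.59) than the non-responders (SD 0.38): 8 of 10 responders were under the average non-responder of the same slide series, and the other 2, again responders 5 and 6, held 7.20 and 6.89. The difference was -0.43 (SE 0.22, 95% interval -0.88 to 0.02), a ratio of 0.743 (unadjusted p = 0.0625, limma adjusted p = 0.646). Within the series it was -0.70 and -0.16.

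Gnmt encodes glycine N-methyltransferase, an abundant liver enzyme that makes sarcosine and disposes of excess SAM. Its signal was 7.88, 8.01 and 8.30 (lowest, median and highest) in responders and 7.82, 8.03 and 8.46 in non-responders. The group means nearly coincided, at 8.08 ± 0.16 for responders (SD, n = 10) and 8.08 ± 0.19 for non-responders (SD, n = 10), and the difference with slide series in the fit was 0.04 (95% interval -0.10 to 0.19, limma adjusted p = 0.885). That interval is the narrowest of the 9 and bounds the ratio between 0.931 and 1.14.

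Pemt encodes the enzyme that methylates phosphatidylethanolamine to phosphatidylcholine, a lipid needed to export fat from liver. Its brighter probe gave 5.60, 5.96 and 6.14 in responders and 5.58, 5.82 and 6.02 in non-responders. Responders were slightly higher, by 0.11 (SE 0.07, 95% interval -0.05 to 0.27, limma adjusted p = 0.736), and 7 of 10 exceeded the average non-responder of the same series. The other Pemt probe gave a difference of 0.15 (SE 0.09), of the same sign in both series.

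Ahcy encodes the hydrolase that splits S-adenosylhomocysteine, the product of methylation reactions and an inhibitor of them. Its brightest probe gave 6.74, 7.07 and 7.71 in responders and 6.79, 7.43 and 7.81 in non-responders. The responders gathered at the low end, 7 of 10 under the average non-responder of the same series, and the difference was -0.17 (SE 0.14, 95% interval -0.47 to 0.13, limma adjusted p = 0.782). By slide series it was -0.31 (first) and -0.03 (second). The other 2 Ahcy probes gave -0.17 (SE 0.17) and -0.10 (SE 0.19), and both were above 0 in the second series, at 0.02 and 0.22. Which transcripts 2 of these probes measure is uncertain. The annotation places the probe at -0.17 (SE 0.17) on chromosome 16 rather than on chromosome 2, where the gene lies. It describes the brightest by a predicted gene rather than by Ahcy. Only the probe at -0.10 (-0.42 and 0.22 within the series) is annotated to an Ahcy transcript on chromosome 2.

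Bhmt encodes betaine-homocysteine methyltransferase, which remakes methionine with a methyl group of betaine, an oxidation product of choline. Its signal was 7.76, 8.20 and 8.66 in responders and 7.54, 8.07 and 8.57 in non-responders. Responders were somewhat higher, with 7 of 10 over the average non-responder of the same series, by 0.15 (SE 0.13, 95% interval -0.12 to 0.42, limma adjusted p = 0.783), and by 0.07 and 0.24 within the series. Bhmt2, measured by a probe of its own, gave -0.01 (SE 0.08).

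Cbs and Cth encode the consecutive enzymes of transsulfuration, cystathionine beta-synthase and cystathionine gamma-lyase, and their differences had opposite signs. Cth signal was 4.38, 4.80 and 5.17 in responders and 4.72, 5.11 and 5.38 in non-responders. Its difference was -0.29 (SE 0.12, 95% interval -0.53 to -0.04), a ratio of 0.821, with the smallest unadjusted p of the 9 members (0.0252, limma adjusted p = 0.593). It was below 0 in both series, at -0.37 and -0.20, and 7 of 10 responders were under the average non-responder of the same series. Leaving out any of 3 single livers put the unadjusted p above 0.05: it was 0.0709 without responder 1 (difference -0.22), 0.0555 without non-responder 8 (-0.25) and 0.0502 without responder 2 (-0.26).

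Cbs signal was 3.81, 4.40 and 5.25 in responders and 3.87, 4.38 and 5.04 in non-responders. The 2 groups covered nearly the same range, and the difference of 0.14 (SE 0.19, 95% interval -0.25 to 0.53, limma adjusted p = 0.856) had opposite signs by slide series, 0.41 (first) and -0.13 (second). With the mean of the adipocyte markers as a covariate it was -0.01. Although the fitted difference was above 0, 6 of 10 responders were under the average non-responder of the same series.

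Shmt1 encodes the cytosolic serine hydroxymethyltransferase, which passes a one-carbon unit between serine and folate. Its brighter probe gave 2.17, 2.64 and 3.05 in responders and 2.22, 2.62 and 2.90 in non-responders. The medians nearly coincided, and the difference was 0.08 (SE 0.11, 95% interval -0.15 to 0.30, limma adjusted p = 0.860), at 0.21 and -0.06 within the series. The other Shmt1 probe gave 0.18 (SE 0.12) and was above 0 in both series, at 0.14 and 0.23, so only the brighter probe changed sign.

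**Figure D2:**
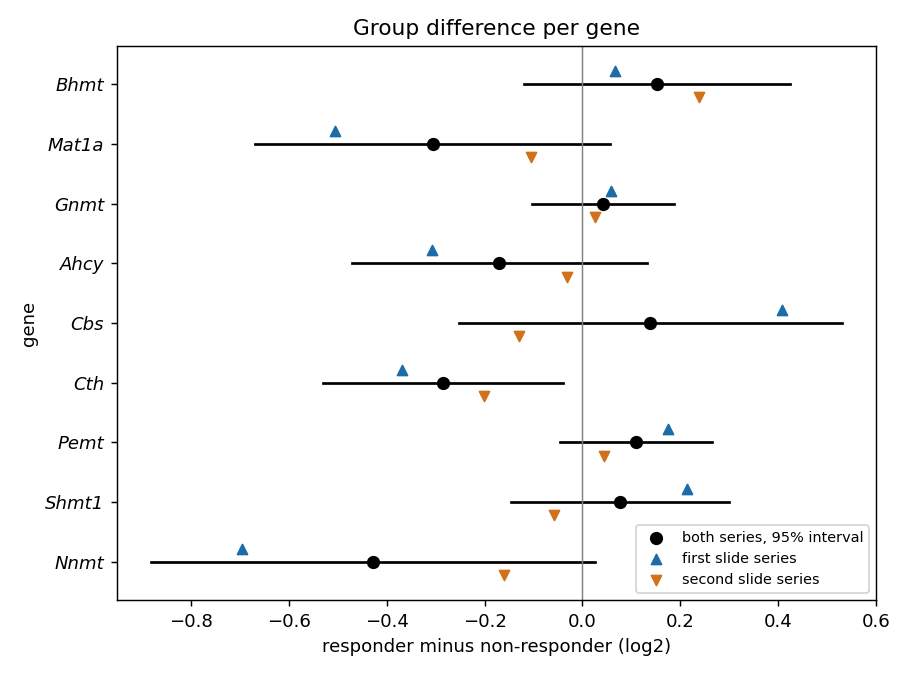
Difference in log2 signal, responder minus non-responder, for each of the 9 genes (down the page), with the 95% interval of the fit over both slide series as a line and the value within each series as a triangle. Only the interval of Cth, -0.53 to -0.04, lies below 0, and Cbs and Shmt1 change sign between the series, Shmt1 by its brighter probe only.

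For 7 of the members the differences had the same sign in both series, against 48.8% of all rows, and 4 of 9 were lower in both series, against 25.4%. For these 4 the second series gave the smaller size in each case. The counts of 7 and 4 rest on the brightest probe of each gene. Both other Ahcy probes changed sign between the series, and the other Shmt1 probe did not. The test of the difference between series gave unadjusted p-values between 0.154 and 0.826 for the members (limma interaction term, all adjusted p-values at least 0.641), and 9.69% of all rows had an unadjusted p under 0.05 in that test. With the adipocyte marker mean as a covariate, Nnmt was at -0.56 (SE 0.25) and Cth at -0.35 (SE 0.14). Without it they were at -0.43 (SE 0.22) and -0.29 (SE 0.12), so each shift was smaller than its SE. With the acinar marker mean as a covariate Nnmt was at -0.47 and Cth at -0.29. Over the 20 livers, Pearson's r between a member and the adipocyte mean lay between -0.174 and 0.264, Spearman's rho between -0.229 and 0.224 (smallest adjusted permutation p 0.848 for r, 18 relations). Whether the lower stellate and fibroblast markers bear on any member was not tested.

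The rest of the pathway was taken as 10 lists of 100 genes, of which 96 were measured. None passed the adjusted test, 51 were higher and 45 lower in responders, and 7 had an unadjusted p under 0.05, which is 7.29% of them against 7.94% of all rows. Of 19 folate cycle genes 7 were higher and 12 lower, and only Shmt2, the mitochondrial serine hydroxymethyltransferase, was under that unadjusted level, at 0.19 (SE 0.07). Of 11 genes of choline oxidation and glycine breakdown 6 were higher and 5 lower, with Gcsh, the lipoyl carrier protein of the glycine cleavage system, at 0.12 (SE 0.05). Mat2a, Mat2b, Ahcyl1, Ahcyl2, Adk and Bhmt2, further enzymes of SAM and homocysteine handling, divided into 3 higher and 3 lower, all with an unadjusted p above 0.05.

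Beyond transsulfuration, 6 of 11 genes of cysteine, taurine and glutathione synthesis were higher and 5 lower. Got1, the cytosolic aspartate aminotransferase, which can deaminate cysteine derivatives, had the widest difference of the 7, -0.68 (SE 0.27, limma adjusted p = 0.577), or -0.99 (first series) and -0.36 (second series). All 3 genes of serine synthesis were lower: Psat1, which transaminates phosphohydroxypyruvate, at -0.47 (SE 0.15, limma adjusted p = 0.525), Phgdh, the entry enzyme, at -0.42 (SE 0.24) and Psph, the final phosphatase, at -0.07 (SE 0.11). Psat1 was dim, well above background in 9 of 10 responders and in 10 of 10 non-responders, and its difference was -0.17 (unadjusted p = 0.0694) with plain background subtraction.

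Among users of SAM outside the 9 members, 8 of 10 small-molecule methyltransferases were higher and 2 lower. As3mt, which methylates arsenic, was 1 of the 2, at -0.34 (SE 0.12, limma adjusted p = 0.535). Of 13 genes of methionine salvage and polyamines 9 were higher and 4 lower, with Adi1, a dioxygenase of the salvage route, at 0.17 (SE 0.07). Of 12 genes of nicotinamide and NAD metabolism 7 were higher and 5 lower, with Aox3, an aldehyde oxidase that acts on methylnicotinamide in mice, at 0.29 (SE 0.10). Phosphatidylcholine synthesis had 3 higher and 5 lower of 8, and DNA methyltransferases 2 higher and 1 lower of 3, none with an unadjusted p under 0.05.

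How the members varied together from liver to liver was measured by correlation. Of 36 pairs of members over the 20 livers, 30 had a Pearson's r above 0, and 9 passed at an adjusted permutation p under 0.05, all 9 with r above 0 in the whole set and within both slide series. Of these 9, 8 also passed by Spearman's rho. How many of all pairs of rows would pass was not computed, so these counts have no background share beside them. Without the 2 livers farthest from the median of the first gene of a pair, r of the 9 lay between 0.515 and 0.901. The livers share the array platform, the scaling and the group and series structure, and with the mean of each group and series removed r of these 9 pairs lay between 0.473 and 0.894. With those means removed 18 pairs passed, among them 7 of the 9, while Mat1a with Cth (r = 0.483, adjusted permutation p = 0.0887) and Gnmt with Pemt (r = 0.473, adjusted permutation p = 0.0907) did not pass. Within the first slide series 3 pairs passed, all 3 among the 9, and within the second 8 passed, 2 of them among the 9.

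The closest pair was Mat1a and Ahcy, the enzymes at either side of the methyltransferases. Their r was 0.910 (rho 0.884, permutation p = 1e-05 for both, the smallest the resampling can give, adjusted p = 0.00036). Within the slide series r was 0.879 (first) and 0.949 (second), and it was 0.901 without the 2 farthest livers. Responders 5 and 6 were high for both genes and non-responder 4 was low for both, at 6.10 for Mat1a and 6.79 for Ahcy. Of 17049 other rows with a value on all arrays, 2 were at least as close to Ahcy as Mat1a was, or 0.0117%, with series means removed. In the other direction 11 genes, 0.0645%, were at least as close to Mat1a as Ahcy was. Ahcy stands in all pairs by its brightest probe, which the annotation describes by a predicted gene. Correlations of its other probes with Mat1a were not computed.

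Both genes were also in other pairs that passed. Mat1a followed Nnmt (r = 0.713, rho 0.741, adjusted permutation p = 0.00924) and Cth (r = 0.613, rho 0.635, adjusted permutation p = 0.0272), and Ahcy followed Gnmt (r = 0.652), Cth (r = 0.643) and Nnmt (r = 0.579). These are the 4 members that were lower in responders, together with Gnmt. With series means removed, 1.06% of rows were at least as close to Mat1a as Nnmt was, and 5.24% as Cth was. The shares at least as close to Ahcy were 4.49% for Gnmt, 3.73% for Cth and 2.86% for Nnmt. Taken from the partner's side, the shares of these pairs lay between 0.287% and 1.95%. Pemt and Shmt1 formed a second close pair (r = 0.721, rho 0.732, adjusted permutation p = 0.00576), and 25 genes, 0.147%, were at least as close to Shmt1 as Pemt was. Seen from Pemt, 85 genes, 0.499%, were at least as close as Shmt1 was. Gnmt also followed Pemt (r = 0.595) and Bhmt (r = 0.557), the last of which did not pass by rho (adjusted permutation p = 0.0538). At least as close to Gnmt were 2.82% of rows for Pemt and 2.44% for Bhmt. Taken from the side of Pemt and of Bhmt, the shares were 6.92% and 4.72%.

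For Cbs, 6 of its 8 pairs had r below 0, the lowest with Nnmt (r = -0.486) and Mat1a (r = -0.477). None of the 8 passed (adjusted permutation p 0.0771 for Nnmt and 0.0829 for Mat1a). With series means removed, 94.0% of rows were at least as close to Cbs as Mat1a was, and 89.4% as Nnmt was. That share was 57.0% for Gnmt, whose r with Cbs was then -0.06. The share of all rows with r below 0 was not computed, so the count of 6 has no background beside it. With group and series means removed 2 of the 8 passed, Cbs with Shmt1 (r = -0.649, adjusted permutation p = 0.0316) and with Mat1a (r = -0.515, adjusted permutation p = 0.0490). Its r with Cth, the next enzyme of transsulfuration, was -0.07 over the 20 livers. The highest was with Bhmt (r = 0.428, adjusted permutation p = 0.110).

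**Figure D3:**
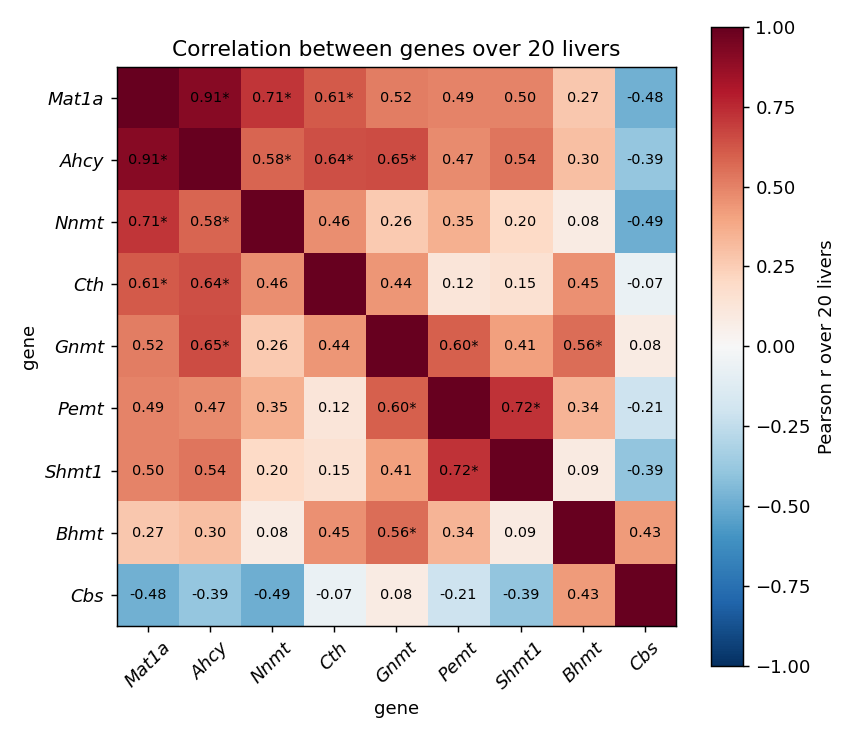
Pearson's r between each pair of the 9 genes over 20 livers, coloured between -1 (blue) and 1 (red), with a star for an adjusted permutation p under 0.05. The 9 starred pairs are all positive, and Ahcy, Mat1a and Gnmt are in the most of them, while 6 of the 8 values of Cbs are below 0.

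The genes most like each member over the 20 livers, by r after removal of series means, were mostly outside the pathway. For Mat1a they were Gpat4 (r = 0.928), Asl (r = 0.927) and 2310001K24Rik (r = 0.927). For Ahcy they were 2310001K24Rik (r = 0.922), Mapk14 (r = 0.914) and Mat1a itself (r = 0.903), the only member among the 3 nearest genes of another. Nnmt was nearest to Fndc3b (r = 0.966), C4bp-ps1 (r = 0.914) and Setmar (r = 0.856), and Cth to Ccar1 (r = 0.841), B830007D08Rik (r = 0.793) and Aass (r = 0.790).

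For Gnmt the nearest were Prodh2 (r = 0.784), Gchfr (r = 0.778) and Zbtb32 (r = 0.765), the lowest values among the 9. Pemt was nearest to Ndufa11 (r = 0.895), 4933429H19Rik (r = 0.870) and Chd1l (r = 0.867), and Shmt1 to Cmip (r = 0.868), Fahd2a (r = 0.850) and Polg2 (r = 0.835). Cbs was nearest to the tubulin genes Tubb4a (r = 0.938) and Tubb5 (r = 0.922) and to Stra6l (r = 0.917), and Bhmt to Mif4gd (r = 0.864), Tmem33 (r = 0.831) and Lgalsl (r = 0.828). Of these 27 places, the smallest unadjusted p of a group difference was 0.0348, for B830007D08Rik at -0.20.

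**Figure D4:**
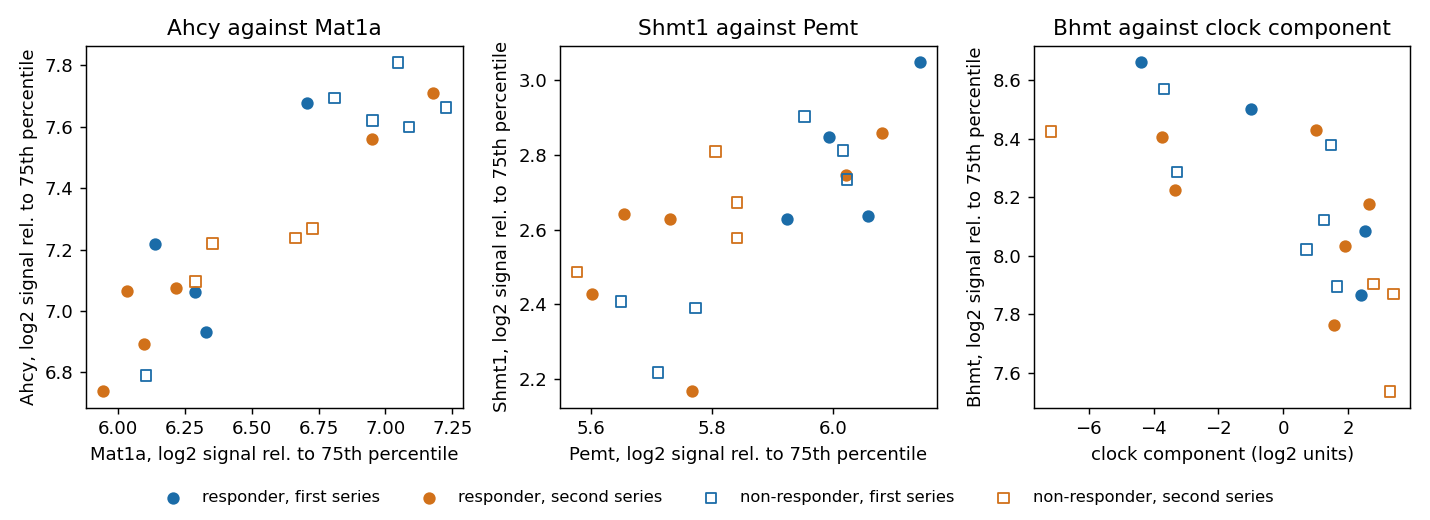
Single livers by Ahcy against Mat1a, by Shmt1 against Pemt and by Bhmt against the first principal component of 11 core clock genes, on log2 axes, with filled circles for responders and open squares for non-responders and colour for slide series. Ahcy climbs with Mat1a in both groups (r = 0.910), and along the clock component the livers divide into 6 at low and 14 at high values.

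Core clock genes were compared with all 9 members after the values had been seen, since the hour of sampling is not in the labels. The first principal component of 11 of them held 66.4% of their variance, with Dbp, Per3 and Per1 at its positive end and Arntl at its negative end. Over all 20 livers r with the component was -0.731 for Bhmt (rho -0.777, adjusted permutation p = 0.00414 for r). For Cbs it was -0.613 (rho -0.549, adjusted permutation p = 0.0364 for r and 0.114 for rho). These p-values were adjusted over 18 relations that include those with the adipocyte mean. With group and series means removed r was -0.7618 and -0.6775 (adjusted permutation p = 0.01035 for both). No background share stands beside Bhmt and Cbs, since rows outside the members were not tested against the component. The livers fell into separate ranges along it, 6 livers (3 responders, 3 non-responders) between -7.17 and -3.28 and 14 livers (7 responders, 7 non-responders) between -0.998 and 3.39, so relations were also taken within each range. Within the low range non-responder 8 lay at -7.17 and the next liver, responder 3, at -4.38. None of the 18 relations within ranges passed after adjustment over all 18. The lowest adjusted permutation p was 0.1, for Bhmt among the 14 livers (r = -0.683, rho -0.574, unadjusted permutation p = 0.00639, and r = -0.534 without the 2 farthest livers) and for Shmt1 among the 6 (r = -0.694, rho -0.829, unadjusted exact permutation p = 0.0111). Bhmt among the 6 livers had r = -0.224 and Shmt1 among the 14 r = -0.0066. Cbs had r = -0.267 among the 14 livers and -0.224 among the 6. With the component as a covariate the group difference was 0.14 for Bhmt and 0.12 for Cbs.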

How the data were processed

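Each sample was deposited as the scanner output of 1 single-colour Cy3 array. The software was Agilent Feature Extraction, version 10.5.1.1 per the file headers, while the submitters' processing notes name version 9.1. This difference could not be resolved. Deposited values are intensities per spot, already background-subtracted and detrended by the authors' software per the file headers. The authors' deposited table of intensities for the same arrays served as an alternative. How it was normalized is not stated in the sources used here, it lacks Cbs and 1 Ahcy probe, and both Pemt probes (and both Shmt1 probes) share 1 value in it.

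From the processed intensity, log2 was taken and each array's 75th percentile subtracted. Control and outlier spots were left out, spots of a probe were averaged, and a probe was retained where 5 or more arrays of 1 group had it well above background (26176 probes). The brightest probe stood for a gene, which gave 17186 rows, 14666 of them with a symbol. Symbols came from the RefSeq table of GRCm38.p6 and probe positions from the array annotation (mm9).

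The group comparison used lmFit and eBayes of limma 3.58.1 (R 4.3.3), with slide series beside group in the model and p-values adjusted by Benjamini-Hochberg over all rows (threshold 0.05). The code was tested on simulated data. Slide series was read from slide barcodes and coincides with scan date. The 20 arrays lay on 13 slides, 3 of them with both groups. Correlations used 100000 permutations, and the number of arrays limits the precision.

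The members, pathway lists and marker lists were chosen with earlier results of these data known. The genes named are all members, up to 3 genes per pathway list in each direction with the smallest unadjusted p under 0.05, and the 3 genes most like each member by r; the other serine synthesis genes, Mat2a, Mat2b, Ahcyl1, Ahcyl2, Adk and Bhmt2 were named after their values were seen. Alternatives were other background corrections, quantile normalization, the authors' values, other filters and variance models, slide, replicate number, marker means or the clock component in the fit, each series alone, and each array left out. Plain background subtraction and the acinar covariate were chosen after seeing the data.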

Additional observations from a re-analysis of the deposited data

How the results depend on the processing

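Across 38 fits, 0 rows passed the adjusted threshold in each, where 1365 had an unadjusted p under 0.05 in the reported one. Of 152 member differences under alternatives other than leaving out an array, 144 kept their sign and 8 turned; all 180 kept it when each array was left out in turn. Normexp background correction put 9 members lower in responders in place of 4: Bhmt -0.307, Gnmt -0.4116, Cbs -0.3735, Pemt -0.3671 and Shmt1 -0.2434 turned, as did Shmt2 (-0.3047), Gcsh (-0.1191), Adi1 (-0.02925), Psat1 (0.2102) and Aox3 (-0.202). That correction fitted a background mean under -50 on 6 arrays, 4 of them responders; plain subtraction turned no member, and put Psat1 at -0.171 (unadjusted p = 0.0694). In the second slide series alone Cbs (-0.1306) and Shmt1 by its brighter probe (-0.05853) turned. Cbs (-0.01231) also turned with the adipocyte covariate, and the cause was not tested. Against 9 member pairs over all livers, 3 passed in the first series alone (3 shared with the 9), 8 in the second (2 shared) and 18 with group and series means removed (7 shared, 2 lost and 11 gained). Pathway genes with an unadjusted p under 0.05, 7 as reported, were 2 with normexp and with the adipocyte covariate, 12 in the first series, 13 with array weights, 12 without non-responder 8 and 4 without responder 10. Of the members, Pemt and Nnmt joined Cth under that level with quantile normalization (limma unadjusted p = 0.0319 and 0.0464) and the authors' values (0.0276 and 0.0456). Mat1a and Nnmt joined it with array weights (0.0344 and 0.0336) and a replicate block (0.00524 and 0.0433). Further alternatives also moved single members across that level.

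Whether the sample numbers pair the samples was not settled. Correlations of same-numbered samples lay between -0.183 and 0.592 (median 0.275), with 6 of 10 over 0.1. Of the responders, 3 of 10 correlated best with their own number. With a replicate block 0 rows passed, 4 members were lower, the smallest adjusted p of a member was 0.280 (Mat1a, -0.4053), and 14 pathway genes had an unadjusted p under 0.05. Leaving out each array, differences ranged between 0.08384 and 0.2224 for Bhmt, -0.3878 and -0.2529 for Mat1a, 0.009556 and 0.07519 for Gnmt, -0.2353 and -0.113 for Ahcy, 0.04936 and 0.2203 for Cbs, -0.3353 and -0.2186 for Cth, 0.08581 and 0.1321 for Pemt, 0.02565 and 0.1219 for Shmt1, and -0.5267 and -0.3287 for Nnmt. With 20 arrays the widest member interval, that of Nnmt, reached -0.88 on the log2 scale.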
